A study of Mus musculus with 8 samples.

Results

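Tlr2, Tlr4 and Cd14 were chosen by exact gene symbol, and all 3 are among the 6287 genes listed in a table of RNA-seq expression from mouse macrophages. The cells were bone marrow derived macrophages, that is, macrophages grown in culture from marrow precursors. Macrophages of genotype PAD4-/- (4 libraries) were compared with wild-type macrophages labelled WT (4 libraries), in work on how macrophages migrate in diabetic kidney disease, as the title has it. PAD4, encoded by Padi4, converts arginine to citrulline in proteins. The mice's strain, sex, age and knockout allele, and the culture conditions, are not stated in the sources used here; each title also carries the word con, which is not explained. The series calls the samples of a group independent, but no label ties a library to an animal or culture day, so each p-value reflects only how far these libraries spread, which may be in part technical.

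Toll-like receptors are membrane receptors that recognise microbial molecules and start inflammatory signalling through NF-kB and interferon regulatory factors. TLR2 pairs with TLR1 or TLR6 at the cell surface and binds bacterial lipoproteins, whereas TLR4 binds lipopolysaccharide together with the small protein MD-2, encoded by Ly96. CD14 is a surface co-receptor that hands lipopolysaccharide to the TLR4 and MD-2 complex and also presents lipoproteins to TLR2. Macrophages are among the cells that carry these receptors at high levels.

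Among the 3 genes, the RefSeq promoter table held a sequence for Tlr2. The 30 bases just before the first exon of Tlr2 in GENCODE M21 (GRCm38, chr3:83841768-83841797, minus strand) are shown because they hold a match to the NF-kB motif, the binding motif of the transcription factor at the end of the Toll-like receptor pathway. Capitals mark the match, which is made of 2 overlapping matches of 10 letters each. RefSeq places the start of the gene further upstream, so by its model these bases lie within the gene.
Tlr2: tctctttaggacacctGGGGAATTCCCaca
The promoter table's window for Tlr2, 300 bases long (chr3:83841559-83841858), held a further match at chr3:83841607-83841616, inside the annotated first exon. Searched on both strands, this motif was present in 4.51% of the 32851 windows of that length in the table. The letters TATAAA and GAGGAA (the core of the motif of PU.1, a macrophage transcription factor), which occurred in 13.6% and 28.3% of windows, were not in this one. A match describes the sequence and was not tested for binding.

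In the RefSeq table of GRCm38.p6, Tlr2 lies on chromosome 3 from 83836272 to 83841824 on the minus strand, Tlr4 on chromosome 4 from 66827551 to 66846581 on the plus strand, and Cd14 on chromosome 18 from 36725064 to 36726815 on the minus strand. No exon of another gene in the GENCODE M21 annotation overlapped an exon of these genes. Of all 50-base stretches in their annotated transcripts, 0 of 2965 for Tlr2, 1 of 5551 for Tlr4 and 0 of 1730 for Cd14 also occurred in a transcript of another gene. Fragments of these genes could therefore be told from those of other annotated genes along nearly their whole length. By contrast, Tlr1 and Tlr6, neighbours on chromosome 5, had 454 such stretches in common. For Tlr1 512 of 3332 stretches, and for Tlr6 456 of 3702, occurred in a transcript of another gene. This could make their values less certain, which was not tested.

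Levels are given in FPKM, a fragment count divided by transcript length and library total, so that genes can be compared with each other. The number of reads behind them is unknown. The sum over listed genes ran from 381573 to 403848 FPKM in a library. PAD4-/- replicates 3 and 4 stood apart from replicates 1 and 2: without the former 662 genes were called higher, without the latter 2228, so the main values are given with and without replicates 3 and 4. Padi4 itself was not analysed here, and the genotype labels have no check from it. Of 10 macrophage markers 8 were listed, among them Csf1r, Adgre1 and Itgam. Their summed level ran from 18300 to 18879 FPKM in wild type and was 19844, 19694, 24589 and 25510 in PAD4-/- replicates 1 to 4. Their median difference from the wild-type mean, on the log2(FPKM + 1) scale, was 0.13, 0.12, 0.41 and 0.34 in those libraries. The markers thus stepped up in replicates 3 and 4, as Tlr2 and Cd14 do below. Of these 8, 6 were higher and 1, Lgmn, was lower in PAD4-/- cells, where 21.1% of all genes tested were called higher and 6.61% lower. With median-of-ratios scaling the number called higher dropped from 6 to 2, Csf1r being one, and Lgmn was still called lower, beside 9.06% and 11.2% of all genes. In bulk RNA, a larger share of cells of a type and more RNA per cell cannot be told apart, and the part of this marker shift in the results below was not tested. Listed markers of neutrophils and fibroblasts were low. Lcn2, the 1 neutrophil marker of 8 that was listed, lay between 0.31 and 1.13 FPKM in the 8 libraries. The 2 fibroblast markers of 6 summed to between 0.21 and 0.84. The 4 dendritic cell markers of 8 summed to between 23.2 and 25.9 FPKM in wild type and between 24.7 and 29.4 in PAD4-/- cells. Only 1 of these 4 reached a mean of 1 FPKM and was tested, and it did not pass. The 3 osteoclast markers of 6 summed to between 17.1 and 20.4 FPKM in wild type and between 9.68 and 11.6 in PAD4-/- cells, and the 2 that were tested, Ctsk and Acp5, were called lower. None of these listed markers was at 0 in every library. Markers of T and NK, B, mast and erythroid cells were not analysed here.

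All 3 genes were higher in PAD4-/- macrophages. The ratio of means was highest for Tlr2 and lowest for Tlr4, and every PAD4-/- library exceeded every wild-type library for each of them, as it did in 24.0% of all genes tested, while 21.1% of all genes tested were called higher. Tlr2 measured 141.7, 141.04, 137.9 and 140.1 FPKM in wild-type replicates 1 to 4, and 186.2, 178.04, 238.8 and 232.6 in PAD4-/- replicates 1 to 4. The wild-type libraries lay close together, while PAD4-/- replicates 3 and 4 stood well above replicates 1 and 2, and the groups did not overlap. Its mean rose from 140.2 ± 1.64 FPKM (SD, n = 4) to 208.9 ± 31.2 (SD, n = 4), a ratio of 1.49. The log2 fold change, on the log2(FPKM + 1) scale throughout, was 0.56 (SE 0.090, adjusted p = 0.00417 in limma, two-sided with Benjamini-Hochberg adjustment over the 5674 genes tested).

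Cd14 split its PAD4-/- libraries as Tlr2 did, at a slightly lower level. Its values were 126.9, 126.1, 125.6 and 131.2 FPKM in wild type and 152.5, 148.9, 204.1 and 207.6 in PAD4-/- replicates 1 to 4. Replicates 3 and 4 were again the higher of the PAD4-/- libraries. The mean rose from 127.4 ± 2.54 (SD, n = 4) to 178.3 ± 31.9 FPKM (SD, n = 4), a ratio of 1.40 (log2 fold change 0.46, SE 0.11, adjusted p = 0.0147 in limma).

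Tlr4 was the lowest of the 3 genes and rose least, but its PAD4-/- libraries were close together. It measured 30.98, 31.73, 31.47 and 30.72 FPKM in wild type and 40.04, 35.35, 39.16 and 37.57 in PAD4-/- replicates 1 to 4. Here replicate 1 was the highest of the PAD4-/- libraries, and replicates 3 and 4 did not stand apart. The mean rose from 31.2 ± 0.458 (SD, n = 4) to 38.03 ± 2.06 FPKM (SD, n = 4), a ratio of 1.22 (log2 fold change 0.27, SE 0.046, adjusted p = 0.00449 in limma).

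**Figure D1:**
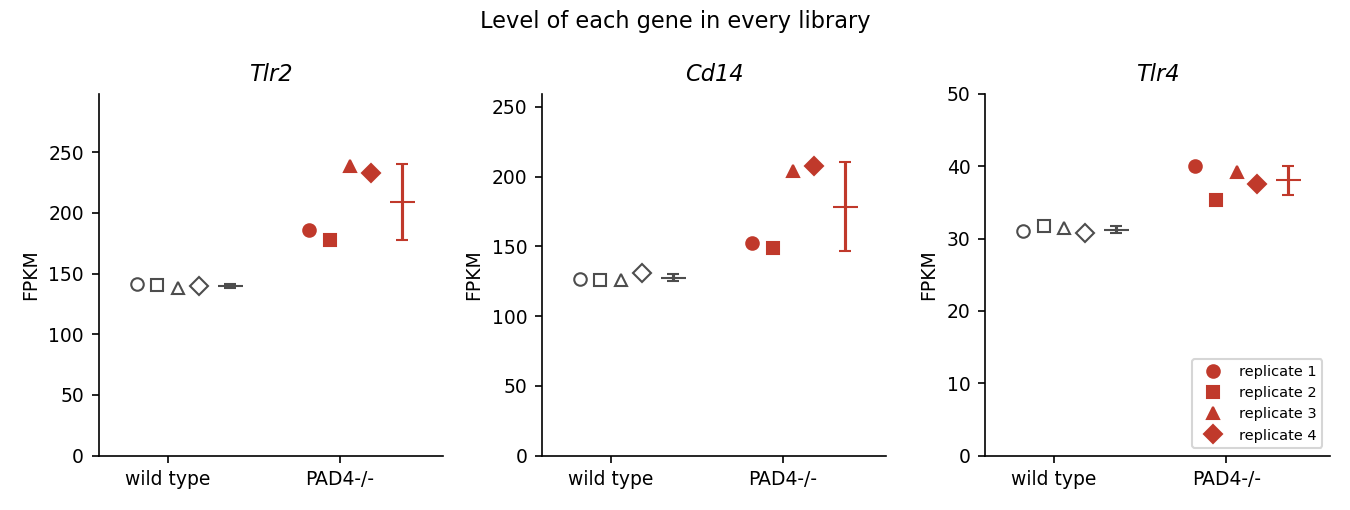
FPKM of Tlr2, Cd14 and Tlr4 in each library of wild-type (grey, open) and PAD4-/- (red, filled) macrophages, with the symbol shape giving the replicate number and the bar at the side the mean ± SD of 4 libraries. All PAD4-/- libraries lie above all wild-type libraries, and PAD4-/- replicates 3 and 4 are the highest for Tlr2 (238.8 and 232.6) and Cd14 (204.1 and 207.6) but not for Tlr4.

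These 3 calls stand against a background in which many genes were called. All 3 genes passed the filter, a mean of at least 1 FPKM over the 8 libraries, far above it in both groups. Among all genes tested, 21.1% were called higher and 6.61% lower at an adjusted p below 0.05, and in 24.0% every PAD4-/- library exceeded every wild-type library, against 7.12% where every one lay below. The deposited values carry a shift, since the median log2 fold change of all genes tested was 0.082. By size, the fold change of Tlr2 exceeded that of 97.9% of the genes tested, Cd14 96.8% and Tlr4 87.6%.

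With median-of-ratios scaling, which brings the median log2 fold change of all genes to 0.0032, the 3 genes were still called higher. Their log2 fold changes became 0.47 for Tlr2 (SE 0.081, adjusted p = 0.00538 in limma), 0.38 for Cd14 (SE 0.097, adjusted p = 0.0272) and 0.19 for Tlr4 (SE 0.046, adjusted p = 0.0219). Under that scaling 9.06% of genes were called higher and 11.2% lower, and all PAD4-/- libraries exceeded all wild-type libraries in 11.6% of genes. The groups remained apart for each of the 3, by 27.8 scaled FPKM for Tlr2, 10.8 for Cd14 and 1.97 for Tlr4 between the lowest PAD4-/- and the highest wild-type library. The authors' deposited table gives log2 fold changes of 0.49 for Tlr2 (q = 4.90e-07), 0.40 for Cd14 (q = 0.000895) and 0.20 for Tlr4 (q = 0.00300). Of the genes tested here, 9.89% passed a q-value of 0.05 upward and 10.6% downward in the authors' deposited table.

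The increase of Tlr2 and Cd14 was smaller without PAD4-/- replicates 3 and 4, and that of Tlr4 was nearly as large. Without PAD4-/- replicates 3 and 4, the log2 fold change was 0.37 for Tlr2 (adjusted p = 0.000289 in limma), 0.24 for Cd14 (0.00455) and 0.26 for Tlr4 (0.0107). These libraries were left out because they stood apart in these same data. Leaving them out narrowed the spread, with an SE of 0.042 for both Tlr2 and Cd14, against 0.090 and 0.11 in the full fit. The smaller adjusted p of Tlr2 and Cd14 goes with that narrower spread and is no added support. Over the 20 alternatives of the fit, the adjusted p ran from 2.56e-08 to 0.0177 for Tlr2, from 6.13e-08 to 0.0443 for Cd14 and from 0.000168 to 0.0219 for Tlr4. Each low end came from the fit without PAD4-/- replicates 1 and 2, which keeps the libraries already seen to be highest for Tlr2 and Cd14. These low ends are therefore no measure of support, and the low ends of the ranges given below came from the same fit. Relative to the wild-type mean, Tlr2 differed by 0.41, 0.34, 0.76 and 0.73 on the log2 scale in PAD4-/- replicates 1 to 4, and Cd14 by 0.26, 0.22, 0.68 and 0.70. Tlr4 differed by 0.35, 0.17, 0.32 and 0.26 in the same libraries. The median of all genes differed by 0.053, 0.063, 0.11 and 0.095, so each gene exceeded it in every PAD4-/- library.

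**Figure D2:**
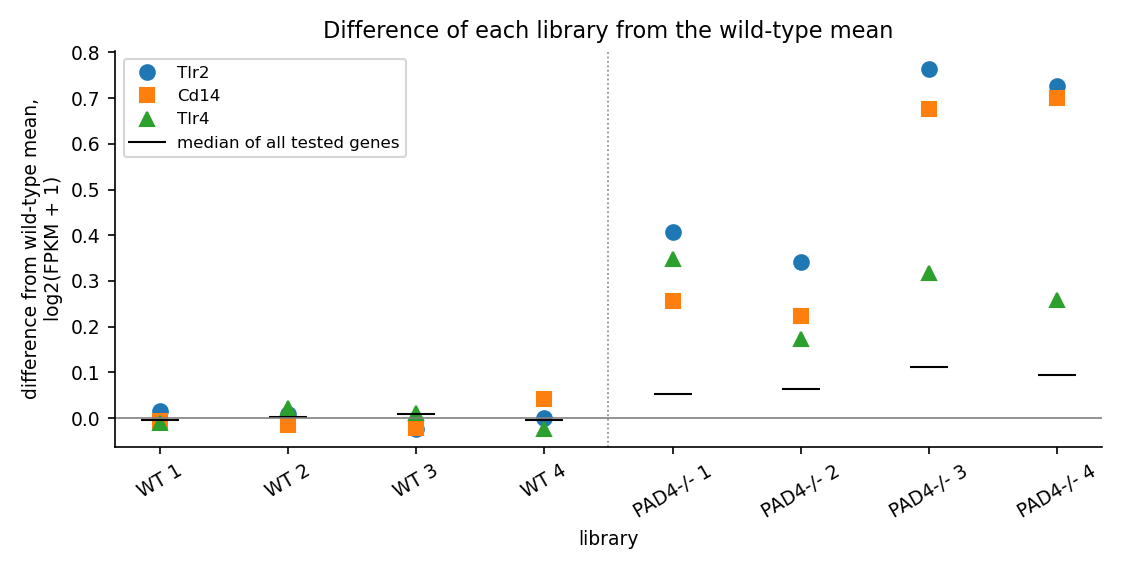
Difference of Tlr2 (circles), Cd14 (squares) and Tlr4 (triangles) from the wild-type mean in each library on the log2(FPKM + 1) scale, with the median of all tested genes as a black dash. Tlr2 and Cd14 step up in PAD4-/- replicates 3 and 4 (0.68 to 0.76), Tlr4 stays between 0.17 and 0.35, and all 3 lie above the dash in every PAD4-/- library.

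The spread within groups was described without a test. In wild type, the coefficient of variation was 1.17% for Tlr2, 1.47% for Tlr4 and 1.99% for Cd14, each below the median of 5.07% over all genes tested. In PAD4-/- cells it was 14.9% for Tlr2 and 17.9% for Cd14, above the median of 7.59%, but 5.41% for Tlr4. These medians take in genes of every level tested, and genes of like level were not compared.

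Ratios between the genes within a library do not depend on how libraries were scaled, apart from the pseudocount, and were used to ask whether the 3 genes moved by unlike amounts. The ratio of Tlr2 to Tlr4 was 4.57, 4.45, 4.38 and 4.56 in wild type and 4.65, 5.04, 6.10 and 6.19 in PAD4-/- replicates 1 to 4. All PAD4-/- libraries lay above all wild-type libraries, although replicate 1 did so narrowly. The difference was 0.29 on the log2 scale, from 2.13 ± 0.029 to 2.42 ± 0.20 (SD, n = 4; exact permutation test over libraries, two-sided, p = 0.0286, adjusted over 3 ratios p = 0.0429), where 0.0286 is the smallest p that 4 against 4 libraries can give. That adjusted p is below 0.05 only because the ratio of Tlr2 to Cd14, given next, also reached the smallest p. The 3 ratios are not independent, since any of them follows from the others. Without PAD4-/- replicates 3 and 4 the difference in the ratio of Tlr2 to Tlr4 was 0.11, and no exact test with fewer libraries could reach the threshold.

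The ratio of Tlr2 to Cd14 moved less. It was 1.12, 1.12, 1.10 and 1.07 in wild type and 1.22, 1.20, 1.17 and 1.12 in PAD4-/- replicates 1 to 4. The groups did not overlap but all but touched, since the highest wild-type ratio was 1.118 in replicate 2 and the lowest PAD4-/- ratio 1.120 in replicate 4. The log2 difference was 0.096, from 0.14 ± 0.030 to 0.23 ± 0.053 (SD, n = 4; exact permutation p = 0.0286, adjusted p = 0.0429), and it was 0.13 without PAD4-/- replicates 3 and 4. The ratio of Cd14 to Tlr4 ran from 3.97 to 4.27 in wild type and measured 3.81, 4.21, 5.21 and 5.53 in PAD4-/- replicates 1 to 4, so the groups overlapped. Its log2 difference was 0.19 (exact permutation p = 0.314, adjusted p = 0.314), and it was -0.021 without PAD4-/- replicates 3 and 4.

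**Figure D3:**
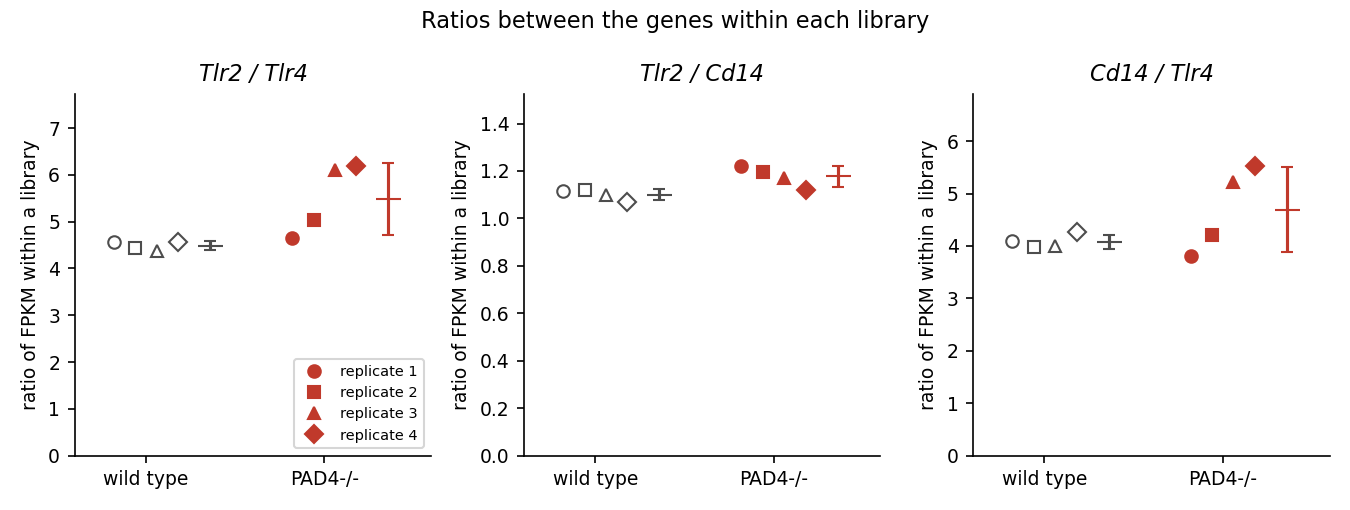
Ratio of FPKM between 2 of the genes within each library, for wild-type (grey, open) and PAD4-/- (red, filled) macrophages, with symbol shape for the replicate number and the bar for the mean ± SD of 4 libraries. The groups do not overlap for Tlr2 over Tlr4, all but touch for Tlr2 over Cd14, and overlap for Cd14 over Tlr4, where PAD4-/- replicate 1 (3.81) lies below all wild-type libraries.

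Set among the other Toll-like receptors and co-receptors by level, Tlr2 and Cd14 were abundant and Tlr4 intermediate. In wild type the order began with Cd36 at 1744 FPKM, a scavenger receptor that assists TLR2, followed by the folding factor Hsp90b1 at 336.8 and Cd180, a TLR-like receptor that modulates TLR4 signalling, at 230.1. Tlr2 came next at 140.2 and then Cd14 at 127.4, with ranges that did not overlap each other or their neighbours. Tlr7, an endosomal receptor for single-stranded RNA, followed at 93.4 FPKM. Ly96 at 38.1 and Cnpy3, a folding factor of Toll-like receptors, at 39.7 overlapped, and Tlr4 at 31.2 and Tlr8 at 27.8 came below them, each apart from its neighbours. In PAD4-/- cells the range of Tlr2, 178.04 to 238.8 FPKM, overlapped those of both Cd180 and Cd14. Tlr4 there overlapped Cnpy3 above it and Ly96 below it. Over all listed genes, the mean level ranked Tlr2 at 322, Cd14 at 359 and Tlr4 at 1552 of 6287.

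Of the other listed Toll-like receptors, Tlr1, Tlr7 and Tlr8 were also called higher. Of 12 Toll-like receptor genes 6 were listed and tested, Tlr2 and Tlr4 included, and 5 rose, none fell, and 1 did not pass. The median log2 fold change of these 6 was 0.30, beside 0.082 for all genes tested, of which 21.1% were called higher. Tlr7 rose from 93.4 ± 3.61 to 116.8 ± 7.87 FPKM (SD, n = 4; log2 fold change 0.32, adjusted p = 0.00493 in limma). Tlr8, its neighbour on chromosome X, rose from 27.8 ± 0.976 to 33.6 ± 1.88 FPKM (0.26, adjusted p = 0.00659). These calls, like those of Tlr2 and Tlr4, held in all 20 alternatives, so that 4 of the 6 were called with median-of-ratios scaling, at a median of 0.21, beside 9.06% of all genes.

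The partners of TLR2 were less clear. Tlr1 measured 9.96, 10.6, 9.65 and 8.43 FPKM in wild type and 11.2, 11.8, 20.7 and 19.8 in PAD4-/- replicates 1 to 4. Replicates 1 and 2 lay just above wild type, and replicates 3 and 4 well above it. Its ratio of means was 1.64 (log2 fold change 0.61, SE 0.20, adjusted p = 0.04996 in limma). That call was lost with median-of-ratios scaling (0.53, adjusted p = 0.0751) and on dropping any 1 of wild-type replicates 1 to 4 or PAD4-/- replicates 3 or 4 (log2 fold changes of 0.47 to 0.66, adjusted p of 0.0832 to 0.117), and its adjusted p over every alternative ran from 6.93e-07 to 0.117. Tlr6 had overlapping groups, 7.37 to 8.76 FPKM in wild type and 8.06 to 10.2 in PAD4-/- cells (adjusted p = 0.183).

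Co-receptors and folding factors did not move as one. Of 12 in the list 7 were tested, Cd14 included: 3 rose, 1 fell and 3 did not pass, with a median log2 fold change of 0.13, beside 21.1% higher and 6.61% lower among all genes tested. Ly96, whose product MD-2 completes the lipopolysaccharide receptor with TLR4, measured 39.2, 43.3, 37.8 and 32.3 FPKM in wild type and 42.8, 28.9, 28.3 and 36.2 in PAD4-/- cells. The groups overlapped widely, with a ratio of 0.893 (adjusted p = 0.356). Cd180 likewise overlapped, at a ratio of 0.960 (adjusted p = 0.377). Hsp90b1, an endoplasmic reticulum chaperone needed to fold most Toll-like receptors, rose from 336.8 ± 4.61 to 429.6 ± 51.1 FPKM (log2 fold change 0.34, adjusted p = 0.0111). Cnpy4, related to Cnpy3, rose from 12.1 ± 0.470 to 13.6 ± 0.668 (adjusted p = 0.0426), a call not kept under median-of-ratios scaling (log2 fold change 0.074, adjusted p = 0.276) and on dropping any 1 of wild-type replicates 1 to 4 or PAD4-/- replicates 3 or 4 (log2 fold changes of 0.13 to 0.18), with adjusted p over all alternatives of 0.0125 to 0.370. Cnpy3 overlapped (adjusted p = 0.172).

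Cd36 was the member of this list that fell. It measured 1758, 1764, 1798 and 1654 FPKM in wild type and 1318, 1154, 758.5 and 798.8 in PAD4-/- replicates 1 to 4. Replicates 3 and 4 were the lowest, opposite in direction to Tlr2 and Cd14. The ratio was 0.578 (log2 fold change -0.83, SE 0.17, adjusted p = 0.0117), and the call was lost with quantile normalization (log2 fold change and adjusted p over all alternatives from -1.16 to -0.50 and from 3.94e-09 to 0.0543).

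**Figure D4:**
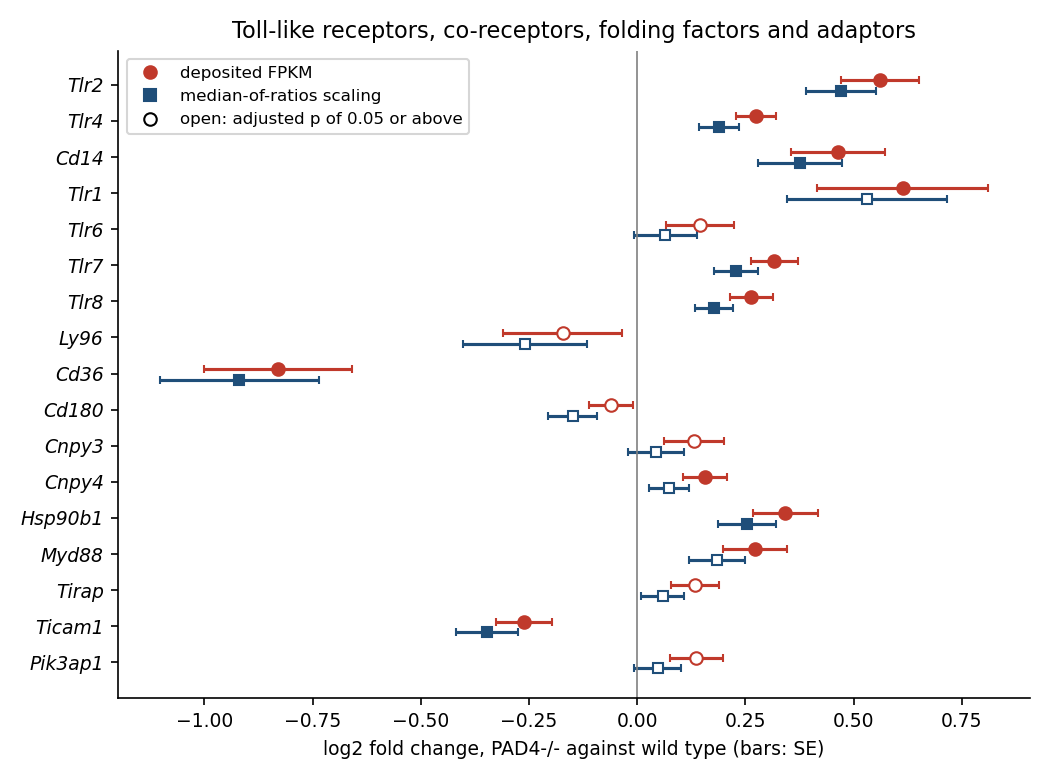
Log2 fold change (PAD4-/- against wild type) ± SE of Toll-like receptors, co-receptors, folding factors and adaptors, from deposited FPKM (red circles) and after median-of-ratios scaling (blue squares), with open symbols for an adjusted p of 0.05 or above in limma. Tlr2 (0.56), Cd14 (0.46) and Tlr4 (0.27) are filled in both, Cd36 (-0.83) and Ticam1 (-0.26) lie to the left, and Ly96 and Cd180 are open.

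Of 7 adaptors that carry the signal inward 5 were tested, of which 1 (Myd88) rose, 1 (Ticam1) fell and 3 did not pass. Against 21.1% of all genes tested called higher and 6.61% lower, 1 of 5 in each direction is no result about the adaptors as a list. Myd88, the adaptor of nearly all Toll-like receptors, had 44.8 ± 1.28 FPKM in wild type and 54.5 ± 6.31 in PAD4-/- cells (SD, n = 4; log2 fold change 0.27, adjusted p = 0.0238 in limma). This call was lost with median-of-ratios scaling (0.18, adjusted p = 0.0720) and on dropping any 1 of wild-type replicates 1 to 3 or PAD4-/- replicates 3 or 4 (0.21 to 0.28, adjusted p of 0.0529 to 0.0690), and its adjusted p over every alternative ran from 1.50e-05 to 0.0843. Without both PAD4-/- replicates 3 and 4, Myd88 was at 0.14 (adjusted p = 0.0843) and not called. Ticam1, which encodes TRIF, the adaptor of the interferon branch of TLR4 signalling, fell from 24.7 ± 0.346 to 20.5 ± 2.12 FPKM (log2 fold change -0.26, adjusted p = 0.0172). With median-of-ratios scaling it was -0.35 (adjusted p = 0.0113), and the call was lost without wild-type replicate 1 (-0.25, adjusted p = 0.0508) and without both PAD4-/- replicates 3 and 4, and its adjusted p over every alternative ran from 4.31e-05 to 0.0742. Tirap, the bridging adaptor of TLR2 and TLR4, and Pik3ap1 did not pass (adjusted p = 0.0917 and 0.115).

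Kinases and ubiquitin steps mostly did not pass. Of 18 in the list 14 were tested, 1 rose and none fell, beside 21.1% and 6.61% of all genes tested, at a median log2 fold change of 0.065. With median-of-ratios scaling none was called, beside 9.06% higher and 11.2% lower among all genes, and the median was -0.015. Ikbke, an inducible kinase related to TBK1, had 10.4 ± 0.540 FPKM in wild type and 11.5, 13.7, 21.4 and 19.5 in PAD4-/- replicates 1 to 4 (log2 fold change 0.58, adjusted p = 0.0366). It was not called with median-of-ratios scaling (0.50, adjusted p = 0.0580) or on dropping any 1 of wild-type replicates 1 to 4 or PAD4-/- replicates 3 or 4 (0.45 to 0.61), with adjusted p over all alternatives of 3.05e-07 to 0.0912. Irak2, Ikbkb and Peli1 followed by adjusted p, at 0.0541, 0.0542 and 0.0589.

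Of 8 transcription factors in the list 7 were tested, 5 rose and none fell, at a median of 0.27, where 21.1% of all genes tested were called higher. With median-of-ratios scaling 2 of the 7 were called higher, beside 9.06% of all genes. Nfkb1, which encodes the p105 precursor of NF-kB p50, rose from 47.3 ± 0.908 to 57.2 ± 5.15 FPKM (log2 fold change 0.27, adjusted p = 0.0131), a call that held in all 20 alternatives. Nfkb2, encoding the p100 precursor, rose from 54.9 ± 1.44 to 73.04 ± 12.4 (0.39, adjusted p = 0.0233), and the call was lost on dropping any 1 of wild-type replicates 1 to 4 or PAD4-/- replicate 4 (0.34 to 0.41, adjusted p over all alternatives of 6.72e-07 to 0.0638). Rela and Irf5 rose to ratios of 1.14 and 1.16 (adjusted p = 0.0265 and 0.0303). Their calls were lost with median-of-ratios scaling (log2 fold changes of 0.10 and 0.12) and on dropping any 1 of wild-type replicates 1, 2 or 3 or PAD4-/- replicates 3 or 4 (0.16 to 0.19 for Rela, 0.16 to 0.21 for Irf5), and that of Irf5 also without wild-type replicate 4. Their adjusted p over all alternatives ran up to 0.165 and 0.134.

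Few inhibitors of the pathway were called. Of 21 in the list 16 were tested, 2 rose and 1 fell, at a median of 0.14. Under median-of-ratios scaling the calls were 1 higher and 2 lower, beside 9.06% and 11.2% of all genes. The number of inhibitors called higher was no larger a share than the 21.1% of all genes tested, and the 1 lower was near the 6.61% of all genes, so the counts set the list apart in neither direction. Nfkbia, the NF-kB inhibitor that NF-kB itself induces, rose from 144.8 ± 4.17 to 182.3 ± 20.6 FPKM (log2 fold change 0.32, adjusted p = 0.0120), a call that held in all 20 alternatives. Inpp5d, the phosphatase SHIP1, rose to a ratio of 1.18 (adjusted p = 0.0108), which was not called with median-of-ratios scaling (log2 fold change 0.14, adjusted p = 0.0981). Otulin, a deubiquitinase of linear chains, had a ratio of 0.863 (adjusted p = 0.0472), and its call was lost on dropping any 1 of wild-type replicates 1 to 4 or PAD4-/- replicates 3 or 4 (log2 fold changes of -0.23 to -0.16, adjusted p over all alternatives of 4.00e-05 to 0.237). Nfkbie had a ratio of 1.42 with overlapping groups (adjusted p = 0.0671).

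Of 22 genes that lipopolysaccharide typically induces in macrophages, 21 were listed and 16 tested, as the other listed ones averaged below 1 FPKM. Of the 16 tested, 9 rose and none fell, at a median log2 fold change of 0.35, where 21.1% of all genes tested were called higher and the median was 0.082. Under median-of-ratios scaling the calls were 6 higher and 1 lower, beside 9.06% and 11.2% of all genes. Ptgs2, Ccl4, Tnf and Il1b had the smallest adjusted p-values, with log2 fold changes of 0.58, 0.37, 0.30 and 0.33. The call of Il1b was lost without both PAD4-/- replicates 3 and 4 (0.20, adjusted p over every alternative up to 0.0551). Ptgs2 differed from Tlr2 in its order of libraries, with 28.8, 26.4, 22.9 and 22.5 FPKM in PAD4-/- replicates 1 to 4 against 14.3 to 18.3 in wild type. Tnf measured 126.4, 137.4, 151.2 and 158.7 FPKM in PAD4-/- replicates 1 to 4 against 110.8 to 120.2 in wild type.

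Pattern receptors of other families held calls in both directions. Of 15 in the list 11 were tested, 4 rose and 1 fell, at a median of 0.38, beside 21.1% and 6.61% of all genes tested. The calls under median-of-ratios scaling were 1 higher and 1 lower, beside 9.06% and 11.2%. The counts under that scaling, and the 1 lower before it, were near those shares and are no result about the list. Nlrp3, the sensor of an inflammasome, rose from 15.04 ± 1.03 to 23.6 ± 4.15 FPKM (log2 fold change 0.60, adjusted p = 0.00595). Clec4d, a C-type lectin, fell from 868.5 ± 47.2 to 644.7 ± 67.1 (-0.43, adjusted p = 0.00458), and these calls held in all 20 alternatives. Clec4n, the lectin Dectin-2, and Nod1, a sensor of bacterial peptidoglycan fragments, rose by ratios of 1.52 and 1.35 (adjusted p = 0.0345 and 0.0428), although the groups of Nod1 overlapped. Their calls were lost with median-of-ratios scaling (log2 fold changes of 0.48 and 0.30). Both were also lost on dropping any 1 of wild-type replicates 1 to 4 or PAD4-/- replicates 3 or 4 (0.45 to 0.59 and 0.28 to 0.43). Over the alternatives their adjusted p was as high as 0.0875 and 0.142. The call of Nod1 was lost as well with quantile normalization and without both PAD4-/- replicates 3 and 4.

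The genes with the most similar pattern over the 8 libraries differed between Tlr2 and Tlr4. Likeness was the root mean square difference of log2(FPKM + 1) values after taking off each gene's wild-type mean, and it is a description of these libraries with no test. Closest to Tlr2 were Srgap2, Pla2g4a, Nlrp3, Mllt6 and Gatd1, at 0.052 to 0.074. Among the 5674 genes tested, less predicted or clone names, Cd14 ranked 10 from Tlr2, at 0.077, whereas Tlr4 ranked 681, at 0.24. The measure takes in the size of a change as well as its order over libraries. Srgap2, for example, ran from 18.8 to 21.1 FPKM in wild type and measured 25.2, 26.8, 34.6 and 33.3 in PAD4-/- replicates 1 to 4, the same step in replicates 3 and 4.

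Closest to Cd14 were Gatd1, Ptpro, Pdia4, Ahrr and Cxcl16, at 0.051 to 0.062, with Tlr2 at rank 23 and Tlr4 at rank 822. Gatd1 stood in the lists of both Tlr2 and Cd14, at a low level of 4.52 to 8.31 FPKM. The call of Cxcl16, at a ratio of 1.38 (adjusted p = 0.0399), was lost with median-of-ratios scaling (log2 fold change 0.34) and on dropping any 1 of wild-type replicates 1 to 4 or PAD4-/- replicates 3 or 4 (0.34 to 0.45, adjusted p over the alternatives as high as 0.0914). Closest to Tlr4 were Kdm6a, Foxn3, Dhx9, Skil and Tbc1d23, at 0.029 to 0.043. From Tlr4, Cd14 ranked 3495 and Tlr2 4047, both farther than most of the genes ranked. Dhx9 had 53.05 to 55.3 FPKM in wild type and 67.99, 63.7, 71.2 and 66.6 in PAD4-/- replicates 1 to 4, with replicate 2 the lowest of its group as for Tlr4.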

How the data were processed

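Expression in 4 wild-type and 4 PAD4-/- libraries was taken as the FPKM values the authors deposited per gene, to 2 decimals. Libraries were made from Trizol-extracted RNA by a BGISEQ protocol, per the labels' protocols. HISAT, Bowtie2, RSEM and GRCm38 are named in the submitters' processing notes, without versions. The deposited table also holds a log2 fold change and a q-value for each gene, both the authors', from a test the sources used here do not name. It holds no read counts, so the depth is unknown and counting error cannot be set.

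Genes were tested on log2(FPKM + 1) with limma 3.58.1 (R 4.3.3, trend and robust empirical Bayes); 5674 of 6287 genes, those averaging 1 FPKM or more, entered, with Benjamini-Hochberg adjustment and a threshold of 0.05. The test was checked on simulated data with independent noise for each gene and equal spread in both groups. That simulation held no split of libraries and no shift shared by all genes, so it does not cover these features of the data. The members, the 8 pathway lists and 9 marker lists were chosen with earlier results of these data known. Genes named are the 3 members, all listed receptors and co-receptors, the 4 smallest adjusted p-values of each other list, and 5 pattern neighbours per member, leaving out predicted or clone names. Alternatives changed the filter, pseudocount, scaling, limma's settings, weights of libraries, the replicate block, or which libraries entered. Of 6287 IDs, 6271 were found in the RefSeq table, and sequence and coordinates are RefSeq's for GRCm38.p6. Lists name genes not in the table held here, which were not analysed here. Some listed genes averaged below 1 FPKM and were not tested.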

Additional observations from a re-analysis of the deposited data

Results flagged for a closer look

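Of 106 groups of 4 libraries examined for 1 value far from the other 3, 2 stood out, and chance gives about 1 in 20. Peli1, which encodes a ubiquitin ligase that acts downstream of Toll-like receptors, was low in wild-type replicate 4, at 16.69 FPKM against 20.04, 20.06 and 20.2 in the other wild-type libraries. Skil, a pattern neighbour of Tlr4 that encodes a repressor of SMAD signalling, was low in PAD4-/- replicate 2, at 30.78 FPKM against 34.11, 34.17 and 34.62 in the other PAD4-/- libraries. No group of Tlr2, Tlr4 or Cd14, and none of their ratios, stood out in this way. The check looks for a single value and cannot pick out libraries that split into pairs, as Tlr2 and Cd14 did in PAD4-/- cells.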

How the results depend on the processing

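Tlr2, Tlr4 and Cd14 kept their direction and their call in all 20 alternatives, with log2 fold changes of 0.37 to 0.75, 0.19 to 0.31 and 0.24 to 0.69. The number of genes called higher and lower, which is the background, was 1195 and 375 as reported. The higher number was 514 with median-of-ratios scaling, 488 with quantile normalization, 2229 with library weights, 662 without PAD4-/- replicates 3 and 4 and 2228 without replicates 1 and 2. It ran from 647 to 1682 when 1 library was left out, at 661, 647 and 654 without wild-type replicates 1, 2 and 3 and 677 and 731 without PAD4-/- replicates 3 and 4. The lower number was 636 with median-of-ratios scaling, 746 with library weights and 793 without PAD4-/- replicates 1 and 2, and ran from 235 to 544 with 1 library left out (235 and 241 without wild-type replicates 2 and 3). The log2 difference in the ratio of Tlr2 to Tlr4 ran from 0.22 to 0.36, and that of Tlr2 to Cd14 from 0.078 to 0.12, with 1 library left out, and they were 0.11 and 0.13 without PAD4-/- replicates 3 and 4. None of these smaller designs can reach an exact p below 0.05. The cause of these shifts was not tested.

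Same-numbered libraries did not deviate together (correlations over genes of -0.032, -0.14, -0.060 and -0.060), so the numbers were not taken to pair samples. With a replicate block 1031 genes were higher and 334 lower, the 3 genes stayed called, and the ratio differences were 0.29 and 0.096, where 4 pairs cannot pass an exact test. Among the 47 other named genes, 806 of 939 values kept their direction and side of the threshold, 107 lost the call, 26 gained it and none turned direction while called. A change of sign without a call was counted as unmoved. Depth is unknown, so its limit on these values cannot be given.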
